A study of Mus musculus with 6 samples.

Results

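The 9 genes described here encode the enzymes and the transporter through which an activated macrophage makes nitric oxide and itaconate and divides arginine between competing enzymes. They are Nos2, Slc7a2, Gch1, Ass1, Asl, Arg1, Arg2, Odc1 and Acod1. They were chosen by gene symbol, matched from the Ensembl identifiers of the deposited count table, and all 9 were found among its 34745 genes. The table holds 6 libraries of wild-type (WT) mouse bone marrow-derived macrophages (BMDM), primary cells grown from bone marrow with the growth factor M-CSF at 20 ng/ml. All 6 had been stimulated with R848 at 100 ng/ml for 6 h. This compound, resiquimod, is an agonist of the endosomal Toll-like receptors TLR7 and TLR8. Before R848, 3 samples were pretreated with DMSO, a solvent, and 3 with an inhibitor of KAT8, a lysine acetyltransferase that acts on histone H4. The inhibitor's name, its dose and how long it was applied are not stated in the labels. No unstimulated cells were analysed here, so each difference is one between R848-stimulated cultures, and induction by R848 itself cannot be read from these data.

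Inducible nitric oxide synthase, the product of Nos2, oxidises arginine to nitric oxide and citrulline and needs the cofactor tetrahydrobiopterin, whose synthesis begins with GTP cyclohydrolase (Gch1). Its arginine comes through the cationic amino acid transporter CAT2 (Slc7a2) or is rebuilt from citrulline by argininosuccinate synthase (Ass1) and argininosuccinate lyase (Asl). Arginase 1 in the cytosol and arginase 2 in mitochondria compete for the same arginine and yield ornithine, which ornithine decarboxylase (Odc1) turns into the polyamine putrescine. Acod1, also called Irg1, encodes the mitochondrial enzyme that makes itaconate from cis-aconitate, an intermediate of the tricarboxylic acid cycle. In inflammatory macrophages Nos2 and Acod1 are well known as strongly induced genes, whereas Arg1 is known as a gene of alternatively activated macrophages.

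Sequences upstream of 4 of the 9 genes were read from the RefSeq promoter table of build GRCm38.p6. They are the 250 bases before the RefSeq start of Acod1 (chr14:103046762-103047011, plus strand) and Gch1 (chr14:47189414-47189663, minus strand), whose mRNAs fell with the inhibitor, and of Ass1 (chr2:31470020-31470269, plus strand) and Odc1 (chr12:17544623-17544872, plus strand), whose mRNAs rose. They are shown because these 4 are the members with an entry in that table, and capitals mark matches to the motifs described after them. The loci given below come from another annotation, GENCODE M21. For Acod1, Ass1 and Odc1 they begin inside the printed bases, so the RefSeq and GENCODE starts of these genes differ. Promoters of Nos2, Slc7a2, Asl, Arg1 and Arg2 were not used here.
Acod1: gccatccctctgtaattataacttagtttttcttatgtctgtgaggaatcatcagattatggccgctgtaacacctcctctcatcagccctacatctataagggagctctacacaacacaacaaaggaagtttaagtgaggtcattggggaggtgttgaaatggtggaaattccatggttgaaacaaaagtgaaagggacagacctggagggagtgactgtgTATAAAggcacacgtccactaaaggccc
Gch1: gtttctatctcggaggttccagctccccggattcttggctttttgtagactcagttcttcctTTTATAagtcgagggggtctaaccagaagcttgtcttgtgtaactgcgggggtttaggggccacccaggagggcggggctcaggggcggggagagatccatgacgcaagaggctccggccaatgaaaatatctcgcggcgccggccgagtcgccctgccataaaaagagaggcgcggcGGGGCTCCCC
Ass1: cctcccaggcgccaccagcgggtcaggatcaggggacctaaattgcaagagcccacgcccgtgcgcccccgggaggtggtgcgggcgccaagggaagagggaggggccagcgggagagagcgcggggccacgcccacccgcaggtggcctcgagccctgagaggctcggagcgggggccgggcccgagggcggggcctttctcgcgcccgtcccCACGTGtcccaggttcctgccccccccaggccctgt
Odc1: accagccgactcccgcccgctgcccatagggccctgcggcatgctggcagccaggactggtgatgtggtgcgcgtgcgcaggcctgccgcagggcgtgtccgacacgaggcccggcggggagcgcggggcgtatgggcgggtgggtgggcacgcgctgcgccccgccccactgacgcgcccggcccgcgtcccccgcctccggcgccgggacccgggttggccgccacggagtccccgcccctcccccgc

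Both strands were searched for 8 motifs in windows that also took in the 50 bases after the RefSeq start. Positions are counted from that start. A TATA box, TATAAA, began 28 bases before the Acod1 start, and a match on the other strand began 188 bases before the Gch1 start. This motif was in 13.6% of all 32851 promoter windows of the same length. A match to the kappa-B consensus, the site class bound by NF-kB, covered the 10 bases before the Gch1 start. Of all windows 4.51% held such a match at any position. An E-box, CACGTG, began 36 bases before the Ass1 start and was in 7.15% of all windows. No window of the 4 genes held the letters of the interferon-stimulated response element core (3.44% of all windows), the gamma-activated site TTCNNNGAA (8.30%), the AP-1 site TGANTCA (7.81%), the C/EBP site TTGCNNAA (10.8%) or the antioxidant response element core TGACNNNGC (12.4%). The Odc1 window had none of the 8 motifs. No match overlapped another, and a match describes letters only.

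The DMSO libraries held 18441352 to 24429778 counts each and the inhibitor libraries 23037820 to 25089320. Whether the replicates are separate animals or cultures is not stated in the labels, and p-values therefore reflect only the spread of these libraries, part of which may be technical. Levels are given in CPM, counts scaled to library size, after TMM scaling, a correction for library composition. Genes were called at an adjusted p under 0.05 in the quasi-likelihood test of edgeR, with adjustment by Benjamini and Hochberg over all 13815 tested genes, and every adjusted p of a gene below is from that test. Of these genes 51.5% were called, 24.9% higher and 26.5% lower with the inhibitor. When libraries were scaled by their totals only, the median log2 fold change over all genes moved from 0.01 to 0.12, with 4888 higher and 2842 lower genes in place of 3446 and 3667, so directions are relative to TMM scaling.

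The labelled cell type was checked against 11 macrophage markers, all of which were expressed. Lyz2, lysozyme, was the most abundant at 8596 CPM with DMSO and 4190 CPM with the inhibitor. Of the 11 markers 8 fell and none rose, and their summed level was 12395 to 14159 CPM with DMSO and 8015 to 8110.2 CPM with the inhibitor. Csf1r, Cd68 and Spi1 did not pass, at log2 fold changes of -0.03, 0.15 and 0.03. Stromal markers were also present, and 7 of 9 fell while Pdgfra (0.08) and Lum (-0.36) did not pass. Their summed level was 4495 to 5297 CPM with DMSO and 2019 to 2152 CPM with the inhibitor, led by the collagen gene Col1a2 at 1701 and 669 CPM. None of the 9 stromal markers was at 0. Neutrophil markers summed to at most 7.29 CPM, with Ly6g, S100a9, Elane and Ngp at 0 in every library, and 2 of 2 tested fell, the most abundant being S100a8. Dendritic cell markers, led by Zbtb46, summed to at most 20.5 CPM with Siglech at 0, and 2 of 2 tested fell. Those of B cells, T and NK cells (led by Cd4), mast cells and basophils (Cma1), erythroid cells (Klf1) and endothelial cells (Kdr) each summed to at most 5.80 CPM, and 0 of 2 tested B cell and 1 of 2 tested endothelial markers fell. In such bulk samples fewer cells of a type and less RNA per cell cannot be told apart, and the part of these marker shifts in the results below was not tested.

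With the inhibitor, mRNA of the arginine transporter gene Slc7a2, of Acod1, of Gch1, of Asl and of Nos2 fell, and mRNA of Ass1 and Odc1 rose. The arginase genes Arg1 and Arg2 did not pass. Thus 5 of the 9 were called lower and 2 higher, together 77.8% of the 9 against 51.5% of all tested genes. Nos2 and Arg1 lay near the threshold on either side. Of 13 alternative fits the Nos2 call was lost in 6, while Arg1 passed in 3 and Arg2 in 1. The values of the DMSO and inhibitor libraries did not overlap for 8 of the 9 genes, Nos2 being the exception, against 60.6% of all tested genes. Their log2 fold changes had a median of -0.32, beside 0.01 for all tested genes. All 9 passed the filter on low counts. Together the 9 genes held 0.322% ± 0.00561 of all counts with DMSO and 0.208% ± 0.00862 with the inhibitor (SD, n = 3), of which Acod1 alone held 0.187% and 0.130%.

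**Figure D1:**
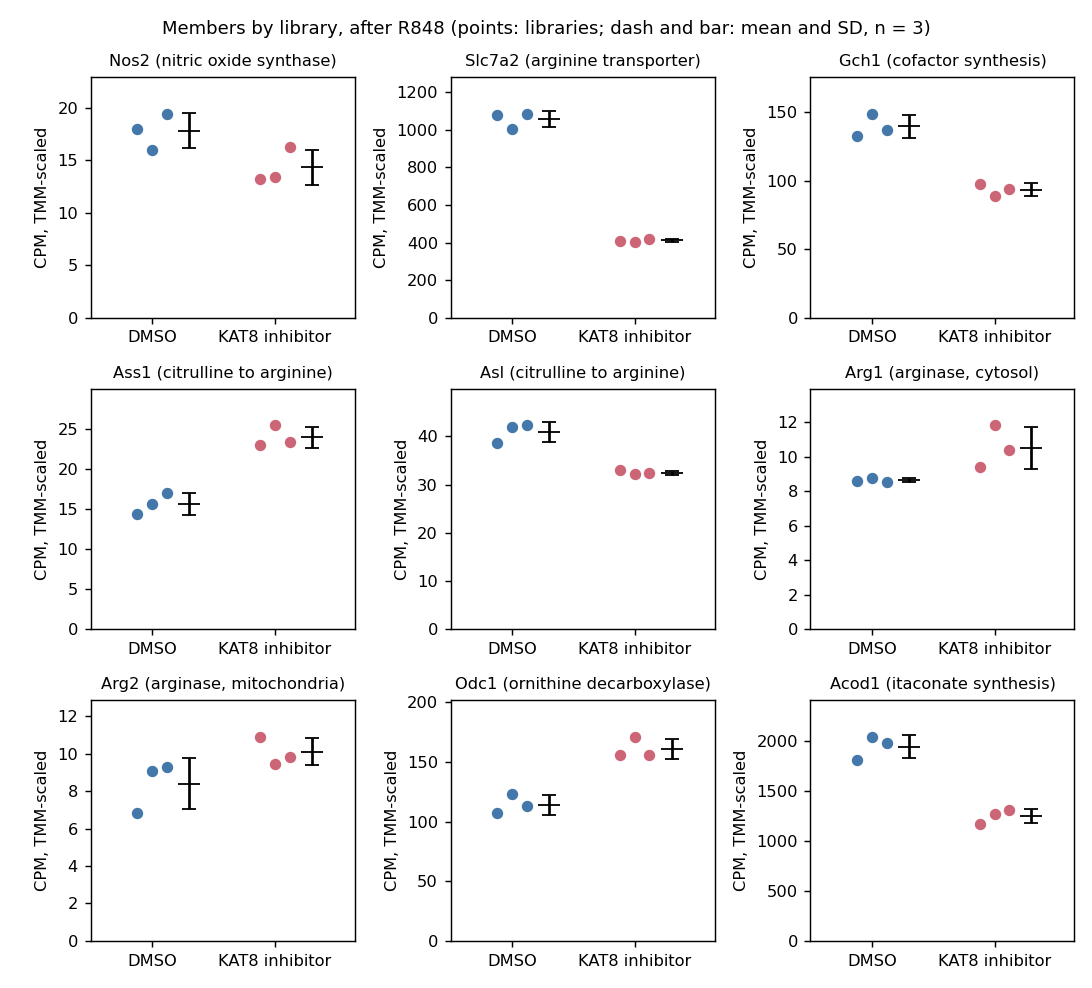
Level of each of the 9 genes in every library, as TMM-scaled CPM on a linear axis from 0, with 3 DMSO libraries in blue, 3 inhibitor libraries in red, and the mean and SD beside them. The groups overlap only for Nos2, where the highest inhibitor library (16.2 CPM) lies above the lowest DMSO library (16.0 CPM).

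Nos2 was weakly expressed in these cultures. Its locus is ENSMUSG00000020826, chromosome 11, 78920787 to 78960254, plus strand, in mm10. The DMSO libraries had 325, 371 and 444 counts of it, the inhibitor libraries 342, 336 and 391. These gave levels of 18.0, 16.0 and 19.4 CPM against 13.2, 13.4 and 16.2 CPM. The third inhibitor library reached the range of the DMSO libraries, while the other two lay below it. The mean fell from 17.8 ± 1.69 to 14.3 ± 1.70 CPM (SD, n = 3), or by 0.32 on the log2 scale (SE 0.11, 95% interval -0.57 to -0.06, adjusted p = 0.0407 by edgeR). This call did not hold without DMSO replicate 1 (adjusted p = 0.0807 by edgeR), DMSO replicate 3 (0.126), inhibitor replicate 1 (0.125) or inhibitor replicate 2 (0.125), nor with library totals alone (0.158) or after correction for GC content and exon length (0.0532). Over 13 alternatives its log2 fold change stayed between -0.42 and -0.21, with adjusted p of 0.0169 to 0.158 by edgeR or DESeq2. Per length of exon, Nos2 stood above 45.2% of tested genes with DMSO and above 40.2% with the inhibitor.

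The other nitric oxide synthases were at the edge of detection. Nos3, the endothelial form, had 6, 3 and 5 counts in the DMSO libraries against 13, 9 and 7, and was below the filter. Nos1, the neuronal form, was at 0 in every library but inhibitor replicate 1, where it had 2 counts. At a limit of 3 counts, which covers counting error only, a gene listed at 0 could still reach 0.116 to 0.166 CPM. Nos2 was therefore the one synthase gene of the family with a level that could be tested.

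Slc7a2, which supplies arginine to the synthase, changed most of the 9. Its locus is ENSMUSG00000031596, chromosome 8, 40862396 to 40922308, plus strand. Levels were 1077, 1006 and 1084 CPM with DMSO and 409, 405 and 421 CPM with the inhibitor. The groups were far apart, and the replicates of each lay within a narrow band. The mean went from 1055 ± 43.1 to 412 ± 8.37 CPM (SD, n = 3), a 2.56-fold fall (log2 change -1.36, SE 0.045, adjusted p = 4.32e-07). A larger change in either direction was seen in 5.28% of tested genes. Exons of Gm26584 on the opposite strand overlap 7.0% of those of Slc7a2, but that gene had 1 count in all 6 libraries together. Of the 9 stromal markers 7 fell in the same libraries, with log2 fold changes from -0.79 (Dcn) to -3.21 (Acta2), while Pdgfra (0.08) and Lum (-0.36) did not pass. Of the 11 macrophage markers 8 fell as well and none rose, with a median log2 fold change of -0.91. The part of either marker set in the Slc7a2 result was not tested.

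Gch1, which opens the synthesis of tetrahydrobiopterin, fell 1.49-fold. Its locus is ENSMUSG00000037580, chromosome 14, 47153895 to 47189413, minus strand. Levels were 133, 149 and 137 CPM with DMSO and 98.0, 89.1 and 94.1 CPM with the inhibitor, a drop seen in every inhibitor library. The means were 140 ± 8.33 and 93.7 ± 4.46 CPM (SD, n = 3; log2 change -0.58, SE 0.058, adjusted p = 8.51e-05). Its upstream bases, printed above, hold the kappa-B match.

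The 2 enzymes that rebuild arginine from citrulline moved in opposite directions. Ass1 (ENSMUSG00000076441, chromosome 2, 31470207 to 31520672, plus strand) had levels of 14.4, 15.6 and 17.0 CPM with DMSO and 23.0, 25.4 and 23.3 CPM with the inhibitor. It rose from 15.6 ± 1.32 to 23.9 ± 1.31 CPM (SD, n = 3; log2 change 0.61, SE 0.085, adjusted p = 0.000525). Asl (ENSMUSG00000025533, chromosome 5, 130011258 to 130029247, minus strand) had 38.6, 41.9 and 42.3 CPM with DMSO and 33.0, 32.2 and 32.4 CPM with the inhibitor. Asl fell from 40.9 ± 2.01 to 32.5 ± 0.438 CPM (SD, n = 3; log2 change -0.33, SE 0.059, adjusted p = 0.00195). Neither gene's groups overlapped.

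A ratio of both genes within a library does not depend on the scaling. This ratio was chosen after the values were seen. Per length, Ass1 stood at 0.744, 0.744 and 0.805 of the Asl level with DMSO and at 1.39, 1.58 and 1.44 with the inhibitor. Ass1 was thus below Asl in every DMSO library and above it in every inhibitor library. With the longest transcript as the length, Ass1 was at 9.23 and Asl at 17.0 with DMSO, and they overlapped at 14.1 and 13.5 with the inhibitor, so the order in the inhibitor libraries depends on the length used and the shift of the ratio does not. The two-sided exact permutation p was 0.1, the smallest that 3 libraries against 3 allow.

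The arginase genes were among the least abundant of the 9. Arg1 (ENSMUSG00000019987, chromosome 10, 24915221 to 24927484, minus strand) had levels of 8.56, 8.76 and 8.55 CPM with DMSO and 9.40, 11.8 and 10.4 CPM with the inhibitor. Each inhibitor library lay above each DMSO library, but the inhibitor libraries spread more. The means were 8.62 ± 0.117 and 10.5 ± 1.20 CPM (SD, n = 3), with a log2 fold change of 0.29 (SE 0.11, 95% interval 0.04 to 0.53, adjusted p = 0.0519 by edgeR), just outside the threshold. It passed without inhibitor replicate 1 (adjusted p = 0.0330 by edgeR), with library totals alone (0.0134) and after removal of GC and length trends (0.0481), over a range of 0.0134 to 0.179 by edgeR or DESeq2.

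Arg2 (ENSMUSG00000021125, chromosome 12, 79130777 to 79156301, plus strand) had 6.85, 9.10 and 9.29 CPM with DMSO and 10.9, 9.47 and 9.84 CPM with the inhibitor. DMSO replicate 1 was the low one, and the other two DMSO libraries lay close under the inhibitor libraries. The log2 fold change was 0.25 (SE 0.13, 95% interval -0.05 to 0.55, adjusted p = 0.144 by edgeR). It was 0.12 without DMSO replicate 1, and it passed with library totals alone (0.36, adjusted p = 0.0379 by edgeR). Exons of Vti1b on the opposite strand overlap 20.0% of the exon length of Arg2. Those of the antisense gene Gm48780, whose level is not given here, overlap 8.1% of it. Vti1b was at 81.3 CPM with DMSO and 78.0 CPM with the inhibitor, and without strand its reads cannot be told from those of Arg2.

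The balance of Arg1 and Nos2 is often used to place macrophages between inflammatory and alternative activation. Per length, Nos2 stood at 1.06, 0.923 and 1.14 of the Arg1 level with DMSO and at 0.708, 0.575 and 0.790 with the inhibitor. The inhibitor libraries all lay lower, with a two-sided exact permutation p of 0.1, the smallest this design allows. Taken over the longest transcript, Nos2 was at 4.24 and Arg1 at 5.84 with DMSO, against 3.41 and 7.12 with the inhibitor. The size of the Nos2 to Arg1 ratio thus depends on the length used, and the direction of its shift does not. Arg1 made up 39.9% ± 3.99 of the summed per-length level of both arginase genes with DMSO and 40.1% ± 4.36 with the inhibitor (SD, n = 3), and these groups overlapped. With the longest transcript as the length, Arg1 was at 5.84 and Arg2 at 5.89 with DMSO. With the inhibitor they were at 7.12 and 7.04, so the size of this share depends on the length used. The Arg2 level may also hold reads of Vti1b or Gm48780. Both ratios were chosen after the values were seen.

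Odc1, the entry to polyamine synthesis, rose 1.41-fold. Its locus is ENSMUSG00000011179, chromosome 12, 17544794 to 17551505, plus strand. Levels were 107, 123 and 113 CPM with DMSO and 156, 171 and 156 CPM with the inhibitor, and every inhibitor library lay above the DMSO range. The means were 114 ± 8.11 and 161 ± 8.57 CPM (SD, n = 3; log2 change 0.49, SE 0.063, adjusted p = 0.000332).

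Acod1 was by far the most abundant of the 9. Its locus is ENSMUSG00000022126, chromosome 14, 103046977 to 103056573, plus strand. Levels were 1813, 2042 and 1981 CPM with DMSO and 1173, 1266 and 1306 CPM with the inhibitor. The lowest DMSO library was well above the highest inhibitor library. The mean fell 1.56-fold, from 1945 ± 118 to 1248 ± 68.2 CPM (SD, n = 3; log2 change -0.64, SE 0.061, adjusted p = 6.31e-05). Even so, Acod1 stood above 99.6% of tested genes per length with the inhibitor, against 99.7% with DMSO.

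**Figure D2:**
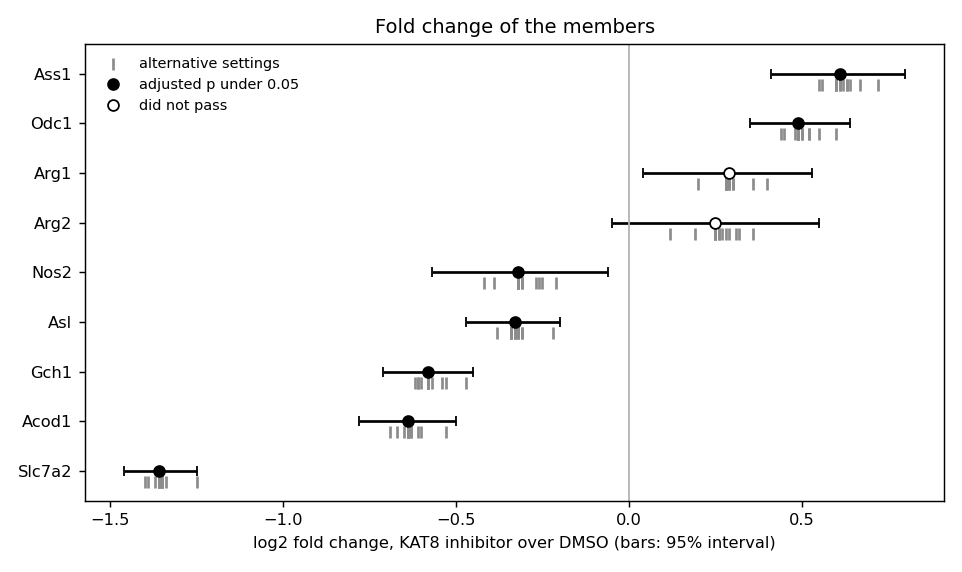
Log2 fold change of each of the 9 genes, inhibitor over DMSO, with its 95% interval, filled where the adjusted p was under 0.05, and grey ticks for the alternative settings. Slc7a2 lies farthest from 0 at -1.36, and no tick of any of the 9 genes crosses 0.

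Levels of different genes were compared as CPM per kilobase of exon. With DMSO the order was Acod1 (742 ± 45.1), Slc7a2 (116 ± 4.72), Odc1 (33.5 ± 2.38), Gch1 (22.4 ± 1.33), Asl (8.47 ± 0.415), Ass1 (6.48 ± 0.549), Arg2 (5.89 ± 0.951), Nos2 (4.03 ± 0.382) and Arg1 (3.87 ± 0.0526, all SD, n = 3). Ass1 and Arg2 overlapped in this order, as did Nos2 and Arg1, and the other neighbours did not. With the inhibitor the order was Acod1 (476 ± 26.0), Odc1 (47.2 ± 2.52), Slc7a2 (45.1 ± 0.917), Gch1 (15.0 ± 0.714), Ass1 (9.89 ± 0.542), Arg2 (7.04 ± 0.506), Asl (6.73 ± 0.0906), Arg1 (4.72 ± 0.539) and Nos2 (3.24 ± 0.384). Here Odc1 and Slc7a2 overlapped, as did Arg2 and Asl. Nos2 was thus the lowest of the 9 in the inhibitor libraries and Slc7a2 no longer exceeded Odc1. With the longest transcript of each gene as its length, Arg1 was at 5.84 and Nos2 at 4.24 with DMSO, so the order of Nos2 and Arg1 there depends on the length used. With that length Odc1 (72.8) and Slc7a2 (52.0) did not overlap with the inhibitor. Asl (13.5) then stood above Arg2 (7.04) in the inhibitor libraries, and Arg1 (7.12) overlapped Arg2.

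**Figure D3:**
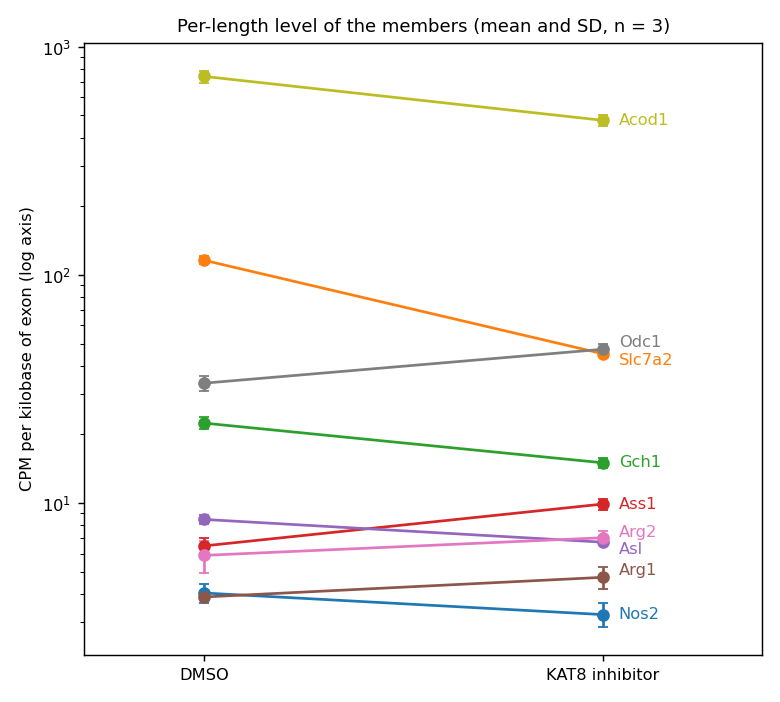
Mean per-length level of the 9 genes (CPM per kilobase of exon, log axis) with DMSO and with the inhibitor, with SD bars over 3 libraries. Lines of Slc7a2 and Odc1 meet at 45.1 and 47.2 with the inhibitor, and Nos2 and Arg1 part from 4.03 and 3.87 to 3.24 and 4.72.

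The genes with the most similar profile were sought among 10067 genes at a mean of 5 CPM or more, by the root mean square difference of log2 levels over the 6 libraries after centring each gene. For Acod1 these were the guanylate-binding protein gene Gbp2 (0.0329), Csnk1g2 (0.0391) and the lysophospholipid acyltransferase gene Lpcat3 (0.0450). For Slc7a2 they were Tm4sf19 (0.0425), Cdc42ep1 (0.0468) and the stromal collagen gene Col1a2 (0.0485). For Ass1 they were Blmh (0.0320), Slc3a2 (0.0325), which encodes the heavy chain of several amino acid exchangers, and Otulinl (0.0379). For Gch1 they were Lgals3bp (0.0276), Tmbim6 (0.0319) and Ext1 (0.0339), for Asl Appl1 (0.0127), Psmc4 (0.0142) and B2m (0.0166), and for Odc1 Jagn1 (0.0221), Dpm2 (0.0230) and H3f3b (0.0298). For Nos2, whose replicates spread more, they were Asap3 (0.0461), Mndal (0.0529) and Sgce (0.0545). The median difference over all candidates was 0.236 for Asl and 0.696 for Slc7a2, the lowest and highest of these 7 members. Since the libraries form only a DMSO and an inhibitor group, the root mean square difference mostly picks genes with a similar fold change. The 3 genes nearest to Slc7a2, for example, had log2 fold changes of -1.38, -1.39 and -1.35, beside -1.36 for Slc7a2. Shared regulation was not tested.

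Other genes of these pathways were taken from 8 lists with 99 genes. Of 88 that could be tested, 16 rose, 33 fell and 39 did not pass, so that 55.7% were called against 51.5% of all tested genes. Their median log2 fold change was -0.09. The share called over all lists was thus near the background. By list it ran from 37.5% to 71.4% of the tested genes, and the lists are described below by their single genes. Of the 49 called genes 39 kept their call under every alternative fit in which they were tested, and none of the 49 changed direction.

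**Figure D4:**
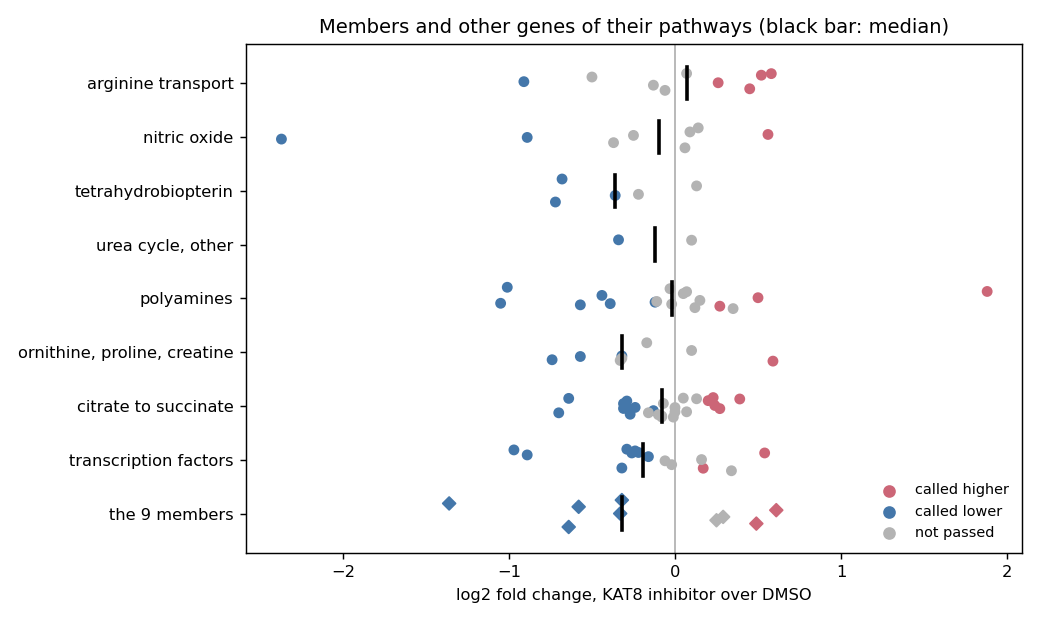
Log2 fold change of the tested genes of each of the 8 pathway lists and of the 9 members (diamonds), red where called higher, blue where called lower and grey where the test was not passed, with a black bar at each median. Smox (1.88) and Gucy1a1 (-2.37) lie farthest out, and the list medians lie between -0.36 and 0.07.

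Among 9 other genes of arginine and neutral amino acid transport 4 rose and 1 fell. Slc7a1, which encodes the constitutive arginine transporter CAT1, was at 156 ± 5.72 CPM with DMSO and 164 ± 7.06 CPM with the inhibitor and did not pass (log2 change 0.07). Slc3a2 rose from 453 ± 43.1 to 677 ± 15.3 CPM (SD, n = 3; adjusted p = 0.000181). Slc7a5, its partner in the exchanger LAT1, fell from 71.1 ± 5.91 to 37.8 ± 2.01 CPM (adjusted p = 2.63e-05). Slc7a8 (log2 change 0.26) rose, as did genes of lysosomal amino acid handling, the arginine sensor Slc38a9 (0.52) and the cationic amino acid exporter Pqlc2 (0.45).

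Of 8 tested genes that regulate or handle nitric oxide 1 rose and 2 fell. Ddah1, which breaks down methylated arginines that inhibit the synthases, fell from 13.0 ± 0.867 to 7.01 ± 0.437 CPM (SD, n = 3; adjusted p = 0.000141). Gucy1a1, a subunit of the soluble guanylate cyclase that senses nitric oxide, had 6.68, 5.65 and 7.28 CPM with DMSO and 1.77, 0.799 and 1.20 CPM with the inhibitor. Its log2 fold change was -2.37 (SE 0.25, adjusted p = 0.000115). The log2 fold changes of the 9 stromal markers ranged from -3.21 to 0.08 in the same libraries, and 7 of them fell. Of the 11 macrophage markers 8 fell as well, and the part of either marker set was not tested. Nostrin, which acts on the endothelial synthase, rose (log2 change 0.56, adjusted p = 0.0102).

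In tetrahydrobiopterin synthesis and recycling 3 of 5 tested genes fell and none rose. Spr, sepiapterin reductase, which completes the synthesis that Gch1 opens, went from 26.3 ± 2.81 to 20.5 ± 1.5 CPM (SD, n = 3; log2 change -0.36, adjusted p = 0.0130). Pcbd2 fell by 0.68 on the log2 scale. The middle enzyme of the synthesis, Pts, did not pass, with a log2 fold change of -0.22 and adjusted p = 0.0984. Gchfr, whose product restrains GTP cyclohydrolase, was too low to be tested.

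Of 6 other genes of the urea cycle 2 were tested, and 1 of these fell. Otc and Cps1, mitochondrial enzymes of the cycle, were at 0 in all 6 libraries. Nags and Slc25a2 had at most 7 and 9 counts in a library and were below the filter. The ornithine carrier gene Slc25a15 fell from 17.6 ± 2.47 to 13.8 ± 1.02 CPM (SD, n = 3; adjusted p = 0.0356). It did not pass without DMSO replicate 1, DMSO replicate 3, inhibitor replicate 1 or inhibitor replicate 2, nor with library totals alone (adjusted p up to 0.136). The aspartate and glutamate carrier gene Slc25a13 did not pass (log2 change 0.10).

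Polyamine genes other than Odc1 moved in both directions, and of 17 tested 3 rose and 6 fell. Smox, spermine oxidase, which turns spermine back to spermidine, had 10.3, 12.2 and 11.7 CPM with DMSO and 42.3, 44.1 and 39.6 CPM with the inhibitor. This 3.68-fold rise (log2 change 1.88, SE 0.084, adjusted p = 1.36e-06) was the largest rise among the pathway genes tested. Amd1, whose product supplies the aminopropyl groups of spermidine and spermine, fell 2.01-fold (adjusted p = 2.68e-06), with means of 60.1 ± 1.58 and 29.8 ± 0.629 CPM (SD, n = 3). Its near-identical copy Amd2 may share reads with it.

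Further polyamine genes were named after their values were seen. Srm, spermidine synthase, fell by 0.44 on the log2 scale, whereas Sms, spermine synthase, did not pass (-0.03). Azin1, which shields ornithine decarboxylase from breakdown, rose from 202 ± 13.0 to 286 ± 40.7 CPM (log2 change 0.50, adjusted p = 0.00323). Azin2, a related gene of the same list, went the other way, from 13.3 ± 0.527 to 8.94 ± 1.87 CPM (log2 change -0.57, adjusted p = 0.01). Oaz1, the antizyme that directs ornithine decarboxylase to the proteasome, did not pass (0.12). Eif5a, the protein that carries the spermidine-derived residue hypusine, fell by 0.39.

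Of 8 genes that use ornithine or make proline and creatine 3 fell and 1 rose. Oat, ornithine aminotransferase, fell from 131 ± 2.50 to 105 ± 2.41 CPM (SD, n = 3; adjusted p = 0.000306). The proline synthesis genes Aldh18a1 and Pycr1 fell by 0.57 and 0.74 on the log2 scale. Prodh, which breaks proline down, rose from 3.48 ± 0.791 to 5.28 ± 0.805 CPM (adjusted p = 0.0326) but did not pass without DMSO replicate 1, DMSO replicate 3, inhibitor replicate 2 or inhibitor replicate 3 (adjusted p up to 0.0977).

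Around itaconate, 5 of 25 genes of the citrate to malate steps rose, 9 fell and 11 did not pass. Acly, which splits citrate in the cytosol for lipid synthesis, fell from 483 ± 12.9 to 297 ± 3.89 CPM (SD, n = 3; adjusted p = 3.76e-06). Ogdh, a subunit of the oxoglutarate dehydrogenase, fell by 0.31 (adjusted p = 0.000343). Of the subunits of succinate dehydrogenase, the enzyme that itaconate inhibits, Sdha (0.00), Sdhb (0.00) and Sdhc (-0.08) did not pass and Sdhd rose by 0.39. Clybl, whose product acts in the breakdown of itaconate, did not pass (-0.16). The dehydrogenase subunits and Clybl were named after their values were seen.

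Of 14 transcription factors with known roles at Nos2, Arg1 or Acod1, 8 fell and 2 rose. Together these were 71.4% of the 14, against 51.5% of all tested genes, and the difference between these shares was not tested. Nfkbiz, an NF-kB cofactor, had 287, 305 and 257 CPM with DMSO and 151, 154 and 154 CPM with the inhibitor (log2 change -0.89, adjusted p = 1.26e-05). Stat6, the factor through which interleukin 4 raises Arg1, rose from 179 ± 8.48 to 261 ± 5.84 CPM (SD, n = 3; adjusted p = 3.76e-05). Named after its values were seen, Irf1, which acts in interferon-driven Nos2 expression, fell by 0.29 on the log2 scale. Rela, the other riser (0.17), did not pass without inhibitor replicate 1 or 2 (adjusted p up to 0.0523). Hif1a fell by 0.32, and Cebpb did not pass (0.16), both likewise named afterwards. With library totals alone, 4 of the 14 were called higher and 5 lower.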

How the data were processed

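Raw read counts per Ensembl gene were deposited by the authors, 1 column per library and not normalized. The submitters' processing notes name build mm10 with HISAT2, edgeR and StringTie 1.3.0. How each was used, which program counted reads, with which annotation, and whether strand or multiply mapped reads were considered is not given in the sources used here. Groups and replicate numbers came from the titles.

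The main test was edgeR 4.0.16 in R 4.3.3, quasi-likelihood, on these counts (TMM scaling, filterByExpr with a minimum count of 10, pretreatment as the only factor). Standard errors were derived from the log2 fold change and its F statistic. Coordinates and exon lengths are from GENCODE M21 of the same build, and 1 pathway gene was not analysed here. The members and lists were chosen with earlier results of these data known. Named were the 9 members, the 2 genes with the smallest p of each pathway list, all called genes of lists with at most 5, the top gene of each marker list and the 3 nearest profiles of each called member. Some genes that this rule takes are not reported here. Replicates differed beyond sampling noise (chi-square per degree of freedom 8.77 to 13.5 within groups), and none was a copy. The procedure was tested on simulated data in which far fewer genes changed than were called here, so that test does not bear on the choice of scaling. Alternatives were median-of-ratios factors, library totals, no filter, a mean of 5 CPM, DESeq2 1.42.0, a replicate block, an adjusted p under 0.01, GC and length trends removed, and each library left out.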

Additional observations from a re-analysis of the deposited data

How the results depend on the processing

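Slc7a2, Acod1, Gch1, Asl, Ass1 and Odc1 kept their direction and call under all 13 alternative fits, with log2 fold changes of -1.40 to -1.25, -0.69 to -0.53, -0.62 to -0.47, -0.38 to -0.22, 0.55 to 0.72 and 0.44 to 0.60. Nos2, Arg1 and Arg2 kept their direction but not their side of the threshold, and the cause was not tested. With library totals alone 4 members were called higher in place of 2, and 27 pathway genes in place of 16. At an adjusted p under 0.01, 2257 of all tested genes were called higher in place of 3446. Leaving out 1 library at a time gave 2 to 3 members higher and 4 to 5 lower, 14 to 17 pathway genes higher and 30 to 35 lower, and 2851 to 3269 of all tested genes higher and 3230 to 3611 lower. Same-numbered libraries of both groups did not deviate together (correlations -0.03, 0.00 and 0.02). No pairing by number was thus seen, although such correlations cannot exclude one. With the replicate number as a block 2 members were called higher and 5 lower, and 3215 and 3510 of all tested genes. Shifting the promoter windows to the 250 bases before the start left the motif counts of the 4 genes as they were. Counts per library were 124 to 295 for Arg1 and Arg2 and 325 to 444 for Nos2.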
